A study of Mus musculus with 9 samples.

Results

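Krt222, Ypel3, Ppp1r14c, Snrnp48, Imp3, Tinagl1, Art5 and Maff are 8 genes of the mouse heart on which little has been written, out of 30128 genes in the expression table. They were selected on their measured values: each changed between db/db hearts given a virus carrying USP28 and db/db hearts given an empty virus, and the direction was opposite to that of db/db hearts against wild-type hearts. The differences of these 8 genes between the groups are therefore a description. Where it is said how many of them passed a threshold, that number follows from the choice and supports nothing. All 8 were found, and all 8 were among the 14104 genes kept after low values were removed.

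RNA of the left ventricle was sequenced in 9 mouse samples, 3 in each of 3 groups. Control mice were wild type, and their labels name no virus. The null-virus mice were db/db, a genotype with a defective leptin receptor that leads to obesity and diabetes, and had received adeno-associated virus of serotype 9 without USP28 (AAV9_null). The USP28-virus mice were db/db too, and their virus of that serotype encoded USP28, an enzyme that removes ubiquitin from proteins. It was driven by the cTnT promoter, which restricts expression largely to cardiomyocytes. The question asked was what overexpressed USP28 does in diabetic cardiomyopathy. Genotype and virus change together between control and null virus, so their shares cannot be told apart. The labels give no age, sex, strain, dose or time after injection, and do not say whether the samples of a group are separate animals, so p-values reflect only how these samples vary. In whole ventricle, fewer cells of a type and less RNA per cell cannot be told apart.

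The 8 genes belong to no common pathway. Krt222 lies in the type I keratin cluster and encodes a keratin-related protein of little known function. Ypel3 encodes a small nuclear protein of the yippee-like family, induced by p53 and able to arrest cell growth. Ppp1r14c encodes KEPI, which inhibits protein phosphatase 1, the main serine and threonine phosphatase of cardiac contractile and calcium proteins, once protein kinase C has phosphorylated it. Snrnp48 is a protein of the minor spliceosome, which removes a small class of introns with their own splice signals. Imp3 belongs to the small subunit processome, the particle that cuts the ribosomal RNA precursor in the nucleolus. Tinagl1 is a secreted matrix protein that binds cell surface receptors. Art5 is an ADP-ribosyltransferase, which moves ADP-ribose from NAD onto arginine. Maff is a small Maf transcription factor without a transactivation domain, which binds antioxidant response elements with partners such as Nrf2 or Bach1.

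Promoter sequence was available from RefSeq (GRCm38.p6) for 7 of the 8 genes, at 10 start sites, and the 250 bases before each start were searched on both strands for 3 motifs. These were the antioxidant response element core TGACNNNGC, which small Maf proteins bind with their partners, the E-box CACGTG and the cAMP response element TGACGTCA. None of the 3 can lie wholly within another, though neighbouring matches could share end bases. The 3 windows with a match are shown, since Maff is itself a factor of the first motif and both genes moved the same way. Matches are in capitals and the remaining bases in lower case. The Maff window upstream of its outer start is chr15:79346371-79346620 (plus strand), that of its middle start is chr15:79347270-79347519 (plus strand), and that of Art5 is chr7:102100230-102100479 (minus strand).
Maff outer start: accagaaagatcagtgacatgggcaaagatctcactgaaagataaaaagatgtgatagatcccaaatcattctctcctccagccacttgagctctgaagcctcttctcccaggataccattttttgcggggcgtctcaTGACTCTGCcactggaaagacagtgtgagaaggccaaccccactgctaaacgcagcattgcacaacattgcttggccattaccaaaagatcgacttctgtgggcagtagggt
Maff middle start: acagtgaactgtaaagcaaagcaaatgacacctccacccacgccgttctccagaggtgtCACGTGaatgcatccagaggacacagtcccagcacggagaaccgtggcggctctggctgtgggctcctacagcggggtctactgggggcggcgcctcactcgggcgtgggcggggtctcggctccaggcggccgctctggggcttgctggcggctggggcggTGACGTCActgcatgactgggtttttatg
Art5: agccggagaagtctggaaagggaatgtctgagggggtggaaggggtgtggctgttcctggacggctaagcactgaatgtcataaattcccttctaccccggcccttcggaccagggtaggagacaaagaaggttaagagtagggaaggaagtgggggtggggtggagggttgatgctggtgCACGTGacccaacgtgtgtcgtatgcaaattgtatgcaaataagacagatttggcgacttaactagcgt

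The outer Maff window held TGACTCTGC at position -112 from the start. The middle Maff window held an E-box at -191 and a cAMP response element at -29, and the Art5 window held an E-box at -69. The Maff span in the expression table begins at 79347541, so the outer (79346621) and middle (79347520) starts lie before it. The Art5 start used (102100229) lies inside the Art5 span, which on the minus strand begins at 102109489. Among all 32851 promoter windows of the same length, 10.2% held the antioxidant core, 6.02% the E-box and 1.55% the cAMP response element. Among the 11334 windows of genes that passed the filter on low values, the shares were 11.9%, 8.14% and 2.49%. The other 7 windows, among them those of Ypel3, Imp3, Snrnp48, Tinagl1 and Ppp1r14c, held none of the 3 in these letters. A match is a description of the sequence, and no binding was measured.

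The genes lie on 7 chromosomes of the mouse build GRCm38. Krt222 is at chromosome 11, 99232761 to 99244085 (minus strand, 6 exons after merging overlaps), and Ypel3 at chromosome 7, 126776955 to 126780514 (plus strand, 4 exons). Ppp1r14c covers chromosome 10, 3366057 to 3464975 (plus strand, 4 exons), and Snrnp48 chromosome 13, 38204939 to 38227663 (plus strand, 10 exons). Imp3 is a single exon of 924 bases at chromosome 9, 56937475 to 56938398 (plus strand). Tinagl1 covers chromosome 4, 130164454 to 130175122 (minus strand, 15 exons), Art5 chromosome 7, 102096879 to 102109489 (minus strand, 7 exons), and Maff chromosome 15, 79347541 to 79359072 (plus strand, 4 exons). All are annotated as protein-coding in GENCODE M21. Imp3 was the shortest and had the lowest mean of the 8, 2.73 scaled RPKM, at the 51.9th percentile of the genes tested, and Ppp1r14c the highest, 20.5, at the 89.6th.

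Levels are in scaled RPKM, the deposited reads per kilobase, per library total, after a further scaling between libraries. Depth, recovered from the values, was 35970332 to 56497662 reads per library, and mitochondrial genes took 15.7% to 19.9% of it. Null-virus replicate 1 stood apart: genes departed from their group mean by 0.334 log2 units on average in it, and by 0.144 to 0.214 in the 8 others, and its scaling factor was 0.847 against 0.971 to 1.08. With null-virus replicate 1 left out, 31.6% of all genes passed between null virus and control and 6.42% between the virus groups, and for these 2 comparisons the text states where the call on a named related gene changes without it. USP28-virus replicate 1 stood apart in atrial markers, with a summed level of 1470 against 91.8 to 352 in the other 8 libraries. Without that library the recovery share described below was 78.9% in place of 69.9% for Ppp1r14c, the largest move among the 8. Usp28 itself was at 12.5, 13.3 and 13.8 in control, 9.93, 7.52 and 7.83 with null virus and 9.94, 11.3 and 11.3 after USP28 virus. Its difference between the 2 virus groups did not pass in limma (log2 0.37, SE 0.12, Benjamini-Hochberg adjusted p = 0.18), and did without null-virus replicate 1 (log2 0.48, adjusted p = 0.016). The sources used here do not say whether viral transcripts were counted as Usp28.

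**Figure D1:**
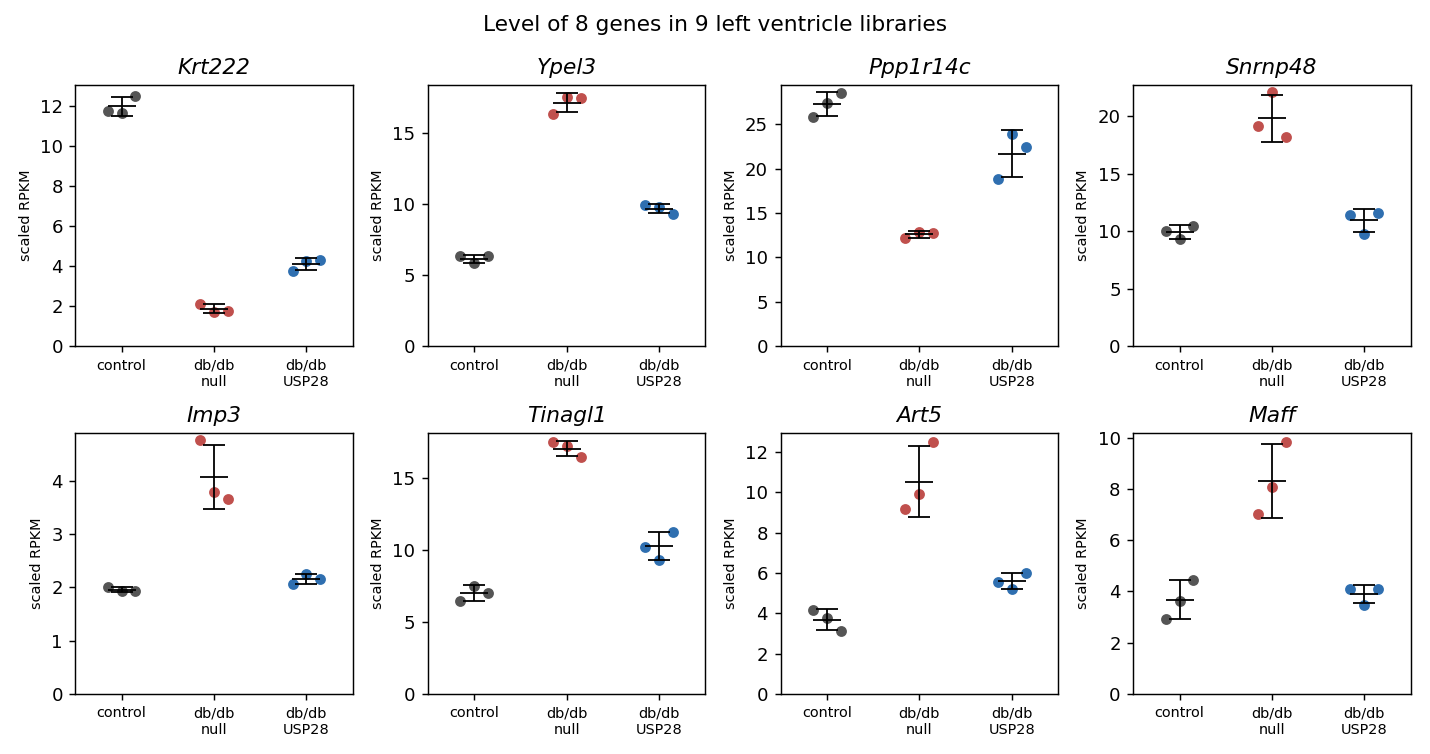
Level of each of the 8 genes (scaled RPKM, vertical axis starting at 0) in every library of the 3 groups on the horizontal axis. Points are libraries, and bars are means ± SD (n = 3). Krt222 and Ppp1r14c were lowest with null virus and the other 6 genes highest with it, with no overlap between the null-virus and control libraries of any gene.

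Krt222 and Ppp1r14c were the genes lower in db/db hearts with null virus and higher again with USP28 virus. Krt222 was at 11.8, 11.7 and 12.5 scaled RPKM in control replicates 1, 2 and 3. With null virus it was at 2.12, 1.71 and 1.74, and with USP28 virus at 3.75, 4.27 and 4.29. The 3 groups did not overlap, and the USP28-virus libraries stood nearer to the null-virus than to the control libraries. The null-virus mean was 0.155 times the control mean (1.86 ± 0.223 against 12.0 ± 0.461, SD, n = 3; log2 -2.63, SE 0.11), the largest difference from control among the 8. The USP28-virus mean of 4.10 ± 0.305 was 2.21 times the null-virus mean (log2 1.11, SE 0.11). Behind the null-virus values stood 212, 226 and 255 reads, for which counting error alone gives a coefficient of variation of 6.58%, against 12.0% observed in the scaled values. Before the further scaling, null-virus replicates 1, 2 and 3 were at 1.79, 1.81 and 1.83 RPKM, closer together than after it.

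Ppp1r14c, the phosphatase inhibitor, was at 25.9, 27.4 and 28.5 in control. It was at 12.2, 12.9 and 12.7 with null virus and at 18.8, 23.9 and 22.5 with USP28 virus. All 3 USP28-virus libraries lay between the 2 other groups, with replicate 1 the lowest of them. The log2 difference was -1.11 (SE 0.10) for null virus against control and 0.78 (SE 0.10) for USP28 virus against null virus.

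An antisense gene model overlaps Ppp1r14c. Gm26752, on the minus strand, shares 765 exon bases with it, and 26.5% of all 75-base stretches of the annotated Ppp1r14c transcripts occur in Gm26752 on the opposite strand. Gm26752 followed the same course, with 29.7 ± 0.650 in control, 12.6 ± 1.13 after null virus and 22.1 ± 2.99 after USP28 virus (SD, n = 3). Gm26752 was not itself chosen, but 765 of its 1537 bases are shared with Ppp1r14c. Its limma values may thus rest on reads that the choice used, and are a description. Gm26752 fell between control and null virus (limma, log2 -1.24, adjusted p = 0.00075) and rose between null virus and USP28 virus (log2 0.80, adjusted p = 0.036), and passed both without null-virus replicate 1. The libraries are directional, but the sources used here do not state whether counting used the strand, so reads of the 2 genes may have been counted for either. Another overlapping gene model, Gm24482, was under the filter on low values.

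Ypel3, Art5, Tinagl1, Snrnp48, Imp3 and Maff were higher in db/db hearts with null virus and lower again with USP28 virus. Ypel3, the growth-arrest gene, was at 6.34, 5.82 and 6.32 in control, 16.4, 17.6 and 17.5 with null virus, and 9.96, 9.78 and 9.31 with USP28 virus. The groups stood far apart relative to their spread, with coefficients of variation of 3.43% to 4.74%. The null-virus mean was 2.78 times the control mean (log2 1.46, SE 0.08), and the USP28-virus mean was 0.565 times the null-virus mean (log2 -0.82, SE 0.08).

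Art5, the arginine ADP-ribosyltransferase, was at 4.15, 3.75 and 3.13 in control. With null virus it was at 9.17, 9.93 and 12.5, and with USP28 virus at 5.58, 5.21 and 6.01. All USP28-virus libraries lay between the other groups, and null-virus replicate 3 was the highest of the 9. The log2 difference was 1.49 (SE 0.14) for null virus against control and -0.89 (SE 0.14) for USP28 virus against null virus. Tinagl1, the secreted matrix protein, was at 6.44, 7.52 and 7.03 in control, 17.5, 17.2 and 16.4 with null virus, and 10.2, 9.32 and 11.3 with USP28 virus. Its 3 groups did not overlap either (log2 1.27 and then -0.73, SE 0.10 for both).

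Snrnp48, Imp3 and Maff came closest to the control level with USP28 virus. Snrnp48, of the minor spliceosome, was at 9.99, 9.29 and 10.5 in control, 19.2, 22.1 and 18.2 with null virus, and 11.4, 9.77 and 11.6 with USP28 virus. The USP28-virus and control libraries overlapped, and the null-virus libraries stood above both (log2 0.99 and then -0.85, SE 0.11). Maff was at 2.93, 3.62 and 4.46 in control, 7.02, 8.07 and 9.86 with null virus, and 4.11, 3.48 and 4.09 with USP28 virus. Its control and USP28-virus libraries overlapped too, and its control libraries had the widest spread of the 8 genes, 20.8% of their mean. The log2 difference of Maff was 1.17 (SE 0.17) for null virus against control and -1.07 (SE 0.17) for USP28 virus against null virus.

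Imp3, the processome protein, was at 2.02, 1.94 and 1.92 in control, 4.76, 3.78 and 3.66 with null virus, and 2.06, 2.24 and 2.16 with USP28 virus. The lowest USP28-virus library was just above the highest control library. Imp3 rested on 76 to 150 reads per library, fewer than any other of the 8, and counting error alone gives a coefficient of variation of 10.5% in control, 8.41% after null virus and 10.2% after USP28 virus. The observed values, after scaling, were 2.51%, 14.9% and 4.17%. Before the further scaling, null-virus replicates 1, 2 and 3 were at 4.03, 3.99 and 3.83 RPKM, closer together than after it. On the scaled values, null-virus replicate 1 was 0.35 above the mean of the other 2 null-virus libraries on the log2 scale. Without null-virus replicate 1 the log2 differences were 0.89 and -0.77 in place of 1.01 and -0.88. Of its 75-base stretches 3.76% also occur in transcripts of 4933427G23Rik.

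**Figure D2:**
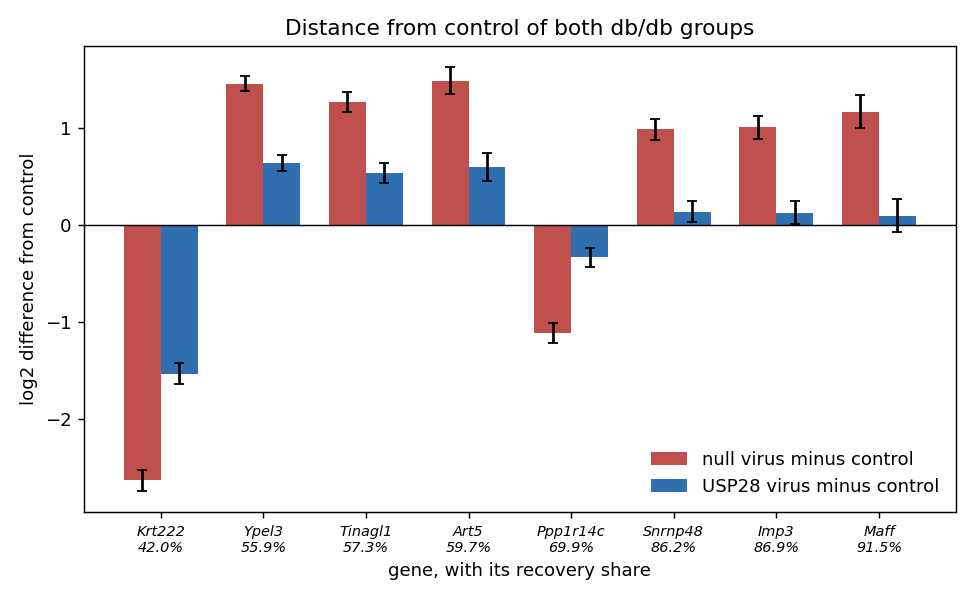
Log2 difference from control (vertical axis, error bars are the standard error of the fit) of the null-virus group (red) and the USP28-virus group (blue), for the 8 genes on the horizontal axis in order of their recovery share. Krt222 is at -2.63 and -1.53, and Maff at 1.17 and 0.10.

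How far the USP28-virus group stood from the null-virus group towards control was expressed as a recovery share, the log2 distance from null virus to USP28 virus as a percent of that from null virus to control. It was 42.0% for Krt222, 55.9% for Ypel3, 57.3% for Tinagl1, 59.7% for Art5, 69.9% for Ppp1r14c, 86.2% for Snrnp48, 86.9% for Imp3 and 91.5% for Maff. The median was 64.8%, and no gene passed beyond the control mean. Without null-virus replicate 1 the shares still ran from 44.0% for Krt222 to 92.3% for Maff, while Tinagl1 (56.7%) then came before Ypel3 (56.9%) and Imp3 (85.2%) before Snrnp48 (86.5%). Since the genes were chosen for a return towards control, the shares describe its size alone.

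The counts that the choice fixed were as follows. Between null virus and control all 8 genes passed limma at an adjusted p under 0.05, 6 higher and 2 lower, where 22.4% of all genes tested passed (10.1% higher, 12.3% lower). Between USP28 virus and null virus all 8 passed as well, 2 higher and 6 lower, where 0.588% of all genes passed (0.39% higher, 0.199% lower). For USP28 virus against control 4 of the 8 passed, Ypel3, Tinagl1 and Art5 higher and Krt222 lower, where 11.7% of all genes passed (5.52% higher, 6.18% lower). The last comparison is the sum of the other 2 and is not independent of the choice, and its count was 2 without any one of control replicate 3, USP28-virus replicate 1 and USP28-virus replicate 3. Every null-virus library lay outside the control range for 8 of the 8 genes, against 41.3% of all genes, and every USP28-virus library did so for 6, against 45.7%. The USP28-virus libraries all lay on 1 side of the null-virus libraries for 8 of the 8, against 23.3% of all genes.

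The 8 calls between USP28 virus and null virus depended on the libraries used. All 8 passed without null-virus replicate 1, 2 passed when either control replicate 1 or control replicate 3 was left out, and 0 passed without any one of control replicate 2, null-virus replicates 2 and 3 and the USP28-virus replicates. In a limma fit of the 2 virus groups alone 0 passed, with 8 at an unadjusted p under 0.05, and all 8 passed with limma voom. With library totals alone as the scaling 3 passed. The signs of these differences were the same under every one of these settings.

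Over the 9 libraries the genes tracked one another, with absolute Pearson coefficients of 0.81 to 0.98 among the 28 pairs on the log2 scale, as the choice of genes by group differences entails. Deviations from the group means were compared too, though their size enters the limma calls and so is not free of the choice. They gave coefficients of -0.71 to 0.85 with a median of -0.07 over the same 9 libraries. The highest was between Krt222 and Imp3, 2 genes for which null-virus replicate 1 was above the others in its group after scaling. Before scaling, null-virus replicates 1, 2 and 3 were at 1.79, 1.81 and 1.83 for Krt222 and at 4.03, 3.99 and 3.83 for Imp3. The lowest coefficient was between Ypel3 and Tinagl1. All these coefficients share library and scaling and are descriptions.

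The genes outside the set whose levels ran most like each of the 8 were found by Pearson r over the 9 libraries, again as a description. For Krt222 they were Zyg11b, a substrate receptor of a ubiquitin ligase (r 0.994), Lyrm7, an assembly factor of respiratory complex III (0.991), and Exoc4, of the exocyst (0.989). For Ypel3 they were Cd47, the surface signal read by phagocytes (0.997), Selenbp1, a selenium-binding protein (0.996), and Cntd1 (0.987). Cd47 went from 2.42 to 4.34 and back to 3.09, and Selenbp1 from 7.79 to 14.4 and 10.0, in means of control, null virus and USP28 virus. For Ppp1r14c the nearest was Mfn2, the mitofusin of the outer mitochondrial membrane (0.982), with 93.6, 44.6 and 68.1, and then Rnf150 (0.981) and a gene whose symbol had been turned into a date (0.981). The Mfn2 values of null-virus replicates 2 and 3 are not whole numbers of reads, unlike every value of the 8 genes.

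For Snrnp48 the most alike were Zfp637 (r 0.991), Hnrnpu, a nuclear RNA-binding protein (0.975), and Cdkn1a, the cell cycle inhibitor p21 (0.975). Cdkn1a had means of 2.89, 7.03 and 3.23 in the same order. For Imp3 they were Gsta4, a glutathione transferase (0.976), Map1lc3a, an autophagosome protein (0.974), and Plod3, a lysyl hydroxylase of collagens (0.973). For Art5 they were Mllt3 (0.984), Hsd11b1, which regenerates active glucocorticoid (0.978), and Cat, catalase (0.972). For Tinagl1 they were another gene with a date for a symbol (0.986), Hrct1 (0.982) and Stk11, the kinase LKB1 (0.982). For Maff they were Hnrnpu (0.973), Amd1, an enzyme of polyamine synthesis (0.964), and Kiz (0.960).

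Flanking genes were compared with the 8. Art5 and Art1, a second arginine ADP-ribosyltransferase, overlap on opposite strands without sharing exon bases. Art1 was at 13.3, 13.0 and 12.8 in control, 23.5, 19.3 and 18.9 with null virus and 15.3, 15.2 and 16.7 after USP28 virus. It rose between control and null virus (limma, log2 0.65, adjusted p = 0.0039), and its difference between the virus groups did not pass (log2 -0.38, adjusted p = 0.13), but did without null-virus replicate 1 (log2 -0.28, adjusted p = 0.046). On the scaled values Art1 was highest in null-virus replicate 1, where Art5 had its lowest null-virus value. Art1 had 2009, 2170 and 2357 reads in null-virus replicates 1, 2 and 3, whose scaling factors were 0.847, 1.06 and 1.05. The place of replicate 1 above the others for Art1 thus rests on the scaling. Of the 15 nearest measured genes on either side of the 8, 3 passed between control and null virus, or 20% against 22.4% of all genes. Mapk3 beside Ypel3 (log2 0.43, adjusted p = 0.026), Bmp6 beside Snrnp48 (log2 0.81, adjusted p = 0.018) and Gm10570 beside Tinagl1 (log2 0.72, adjusted p = 0.043) were those that rose. Without null-virus replicate 1 the number was 6, or 40.0% against 31.6%. None of the 15 passed between USP28 virus and null virus. Without that library 1 did, or 6.67% against 6.42% of all genes, Chrna10 beside Art5 (log2 -1.10, adjusted p = 0.027). Smarce1, 1744 bases from Krt222, was at 27.9 ± 1.41, 34.2 ± 9.41 and 32.1 ± 1.68 in control, null virus and USP28 virus (adjusted p = 0.29 for null virus against control).

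**Figure D3:**
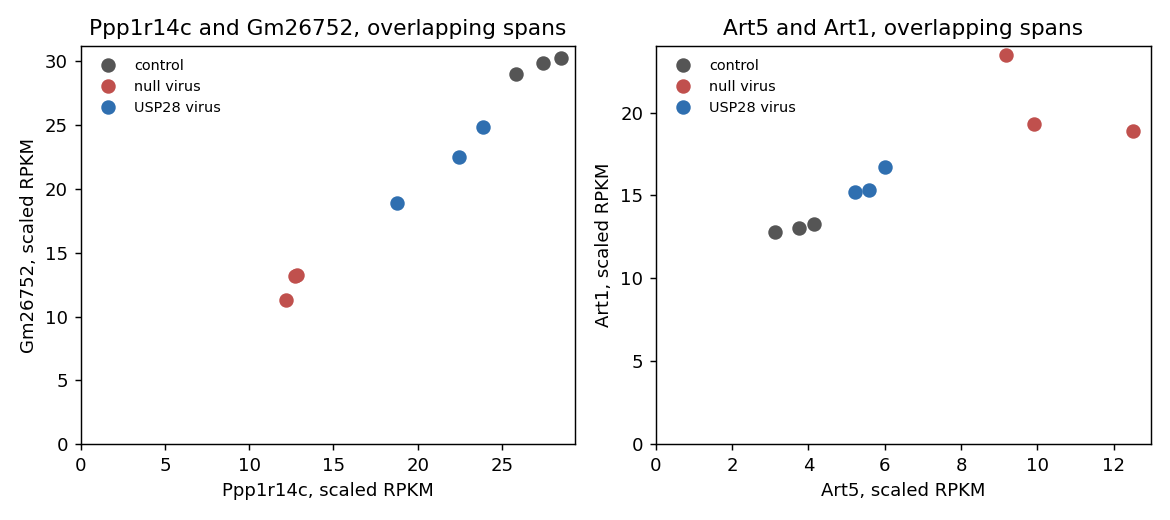
Scaled RPKM of Ppp1r14c against that of the antisense gene model Gm26752 (left) and of Art5 against that of Art1 (right), both axes linear from 0. Each point is 1 of the 9 libraries, coloured by group. Ppp1r14c and Gm26752 lie along a line from 12.2 and 11.3 to 28.5 and 30.3. Among the null-virus points the highest Art1 value (23.5) goes with the lowest Art5 value (9.17). That Art1 value is of null-virus replicate 1, and its place above the others rests on the scaling (factor 0.847).

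Families, partners and targets of the 8 genes were taken from 9 lists of 165 genes, of which 132 were tested. Between null virus and control 44 of them passed, 33.3% against 22.4% of all genes, 32 higher and 12 lower, with a median log2 difference of 0.20 against 0.00 over all genes. That number was 28, 21 and 20 without control replicates 1, 2 and 3. Between USP28 virus and null virus 1 passed, 0.758% against 0.588%, with a median of -0.07 against 0.01. Leaving out null-virus replicate 1 made that number 13, 2 higher and 11 lower, or 9.85% against 6.42% of all genes, and it was 0 without any other single library. For USP28 virus against control 15 passed, 11.4% against 11.7%. It was 36 when null-virus replicate 1 was left out, or 27.3% against 29.2% of all genes. It was 1 and 3 without control replicates 2 and 3, and 1, 6 and 1 without USP28-virus replicates 1, 2 and 3.

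Among the 9 lists, genes under control of Maf and Nrf2 dimers held the most calls. Between control and null virus 11 of 22 rose and 2 fell, or 59.1% against 22.4% of all genes, with a median log2 difference of 0.43. Gsta3 (log2 1.45, adjusted p = 0.0019), Gsta4 (log2 0.74, adjusted p = 0.0017) and Gstm1 (log2 0.75, adjusted p = 0.0017), all glutathione transferases, and Ephx1, the microsomal epoxide hydrolase (log2 1.53, adjusted p = 0.0047), were among those that rose. The 2 that fell, named after their values were seen, were Txnrd1 (log2 -0.57, adjusted p = 0.035) and Abcc1 (log2 -0.50, adjusted p = 0.035). Gsta4 was the only listed gene to pass between the virus groups. It was at 63.1, 58.1 and 58.9 in control, 106.9, 93.5 and 99.9 with null virus and 59.8, 57.4 and 63.4 after USP28 virus (log2 -0.73, adjusted p = 0.031). Without null-virus replicate 1, 5 of the 22 were lower with USP28 virus than with null virus and 0 higher, or 22.7% against 6.42% of all genes. Gstm1 was among the 5 (log2 -0.38, adjusted p = 0.019, against -0.34 and 0.13 with all libraries). Gsta3, Gstm1 and Ephx1 were still higher with USP28 virus than in control, with log2 differences of 0.85, 0.41 and 1.29 (adjusted p = 0.025, 0.026 and 0.016).

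Of the partners of Maff, 3 of 6 tested rose between control and null virus and 0 fell, or 50% against 22.4% of all genes. Mafk, another small Maf, went from 10.5 ± 0.853 to 16.7 ± 1.86 (SD, n = 3; log2 0.66, adjusted p = 0.0043) and stood at 17.9 ± 0.679 with USP28 virus, still above control (log2 0.76, adjusted p = 0.0057). Between the virus groups Mafk was at log2 0.10 (adjusted p = 0.65), beside -1.07 for Maff, and the difference between these 2 genes was not tested. Nfe2l2, which encodes Nrf2, was likewise higher in both virus groups than in control (log2 0.49, adjusted p = 0.035, and log2 0.61, adjusted p = 0.025). Keap1, the adaptor that marks Nrf2 for degradation, rose with null virus (log2 0.32, adjusted p = 0.039). Mafg (log2 0.25, adjusted p = 0.076), Bach1 (log2 -0.06, adjusted p = 0.75) and Nfe2l1 (log2 -0.01, adjusted p = 0.95) did not pass.

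Among the other ADP-ribosyltransferases and hydrolases 3 of 6 rose between control and null virus and 0 fell, or 50% against 22.4% of all genes. Art4 went from 6.93 ± 0.888 to 19.1 ± 6.26 and was at 9.64 ± 1.31 with USP28 virus (log2 1.39, adjusted p = 0.0057, and then log2 -0.93, adjusted p = 0.13). Adprhl2, which removes ADP-ribose from serine, was just under the threshold (log2 0.40, adjusted p = 0.049) and did not pass without null-virus replicate 1 (log2 0.35, adjusted p = 0.074). Art3 (log2 0.31, adjusted p = 0.083), Adprh (log2 -0.16, adjusted p = 0.32) and Adprhl1, a heart-enriched member with 138 to 144 scaled RPKM in the group means (log2 0.04, adjusted p = 0.88), did not pass, though Art3 did without that library (log2 0.36, adjusted p = 0.043). With it left out, Art4 (log2 -1.23, adjusted p = 0.0045) and Art1 were lower with USP28 virus than with null virus.

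In the minor spliceosome 5 of 12 tested partners of Snrnp48 rose between control and null virus and 0 fell, or 41.7% against 22.4% of all genes. Snrnp35, which like Snrnp48 sits in the particle that first binds the intron, went from 7.07 ± 0.549 to 17.3 ± 4.20 and was at 10.6 ± 1.02 with USP28 virus (log2 1.26, adjusted p = 0.0019, and then log2 -0.69, adjusted p = 0.10). Zrsr1 (log2 0.74, adjusted p = 0.0059) and Zrsr2 (log2 0.39, adjusted p = 0.014), which recognise the end of the intron, rose as well. Snrnp25 was lower with USP28 virus than in control (log2 -0.58, adjusted p = 0.031), and Rnpc3 higher (log2 0.69, adjusted p = 0.021). Without null-virus replicate 1, 4 partners rose and 1, Snrnp25, fell between control and null virus (log2 -0.35, adjusted p = 0.040), or 41.7% against 31.6% of all genes. In that setting 2 were lower with USP28 virus than with null virus, or 16.7% against 6.42%, Snrnp35 among them (log2 -0.51, adjusted p = 0.032).

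The 37 tested partners of Imp3 in the small subunit processome did not move as one. Between control and null virus 5 rose and 3 fell, or 21.6% against 22.4% of all genes, and the median log2 difference was 0.03. Dnttip2 (log2 0.54, adjusted p = 0.0054) and Utp3 (log2 0.45, adjusted p = 0.015) rose, and Pno1 fell (log2 -0.63, adjusted p = 0.011). Dnttip2 was at 19.0 ± 0.494, 27.6 ± 0.139 and 19.3 ± 1.93 in the control, null-virus and USP28-virus groups (SD, n = 3), and between the virus groups it did not pass with all libraries (log2 -0.52, adjusted p = 0.054) but did without null-virus replicate 1 (log2 -0.52, adjusted p = 0.014). The count between control and null virus was 5 higher and 8 lower without that library, or 35.1% against 31.6% of all genes.

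Among 25 tested inhibitors and subunits of protein phosphatase 1, related to Ppp1r14c, 2 rose and 4 fell between control and null virus, or 24.0% against 22.4% of all genes. Ppp1r12b, the myosin phosphatase targeting subunit of heart and muscle, went from 18.6 ± 0.640 to 6.73 ± 2.77 and was at 7.93 ± 1.05 with USP28 virus (log2 -1.55, adjusted p = 0.0073 against control, and log2 0.32, adjusted p = 0.58 between the virus groups). Ppp1r12c, another targeting subunit, rose (log2 1.10, adjusted p = 0.0028), as did Ppp1r15a, which directs the phosphatase to the translation factor eIF2 alpha (log2 0.83, adjusted p = 0.0049). Ppp1r10, a nuclear subunit, was higher with USP28 virus than in control (log2 1.06, adjusted p = 0.018). With null-virus replicate 1 left out, 5 of the 25 rose and 6 fell between control and null virus, or 44.0% against 31.6% of all genes.

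Non-collagen basement membrane genes were grouped with Tinagl1. Between control and null virus 3 of 16 fell and 1 rose, or 25% against 22.4% of all genes, with a median log2 difference of -0.35. The gene that rose, named after its values were seen, was the laminin chain Lamb2, just under the threshold (log2 0.36, adjusted p = 0.0496). The laminin chains Lama4 (log2 -0.59, adjusted p = 0.012), Lamc1 (log2 -0.65, adjusted p = 0.024) and Lama2 (log2 -0.85, adjusted p = 0.025) were those that fell. Between the virus groups Lama4 was at log2 0.61 (adjusted p = 0.072) and Lamc1 at log2 0.59 (adjusted p = 0.14). Both passed there without null-virus replicate 1 (log2 0.51, adjusted p = 0.031, and log2 0.37, adjusted p = 0.025), where 2 of the 16 were higher and 1 lower, or 18.8% against 6.42% of all genes. For control against null virus that setting gave 4 higher and 5 lower, or 56.2% against 31.6%, Agrn among the higher (log2 0.50, adjusted p = 0.014). Agrn, the heparan sulphate proteoglycan agrin, was higher with USP28 virus than in control (5.30 ± 0.0813 against 2.68 ± 0.353, log2 0.96, adjusted p = 0.013).

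None of the 3 tested yippee-like relatives of Ypel3 passed between control and null virus, where 1 was at an unadjusted p under 0.05 in limma and 0 passed with limma voom. They are named here after their values were seen: Ypel2 (log2 -0.75, adjusted p = 0.12), Ypel4 (log2 0.65, adjusted p = 0.15) and Ypel5 (log2 0.26, adjusted p = 0.32). When null-virus replicate 1 was left out, Ypel4 was higher (adjusted p = 0.016). Between the virus groups their log2 differences were -0.03 to 0.01. Few keratins reached the ventricle libraries: 5 of 14 listed filament genes in the table could be tested. Between control and null virus 2 of the 5 rose and 0 fell, or 40% against 22.4% of all genes. Those were Krt80 (log2 0.92, adjusted p = 0.038) and the muscle filament gene Des (log2 0.60, adjusted p = 0.021). Krt18 (log2 1.21, adjusted p = 0.36, with null-virus values of 1.03, 0.0357 and 0.852) and Vim (log2 -0.06, adjusted p = 0.70) did not pass. Krt10, the nearest measured keratin on the chromosome, was at 0.469 ± 0.226, 0.593 ± 0.0643 and 0.479 ± 0.123 scaled RPKM (adjusted p = 0.42), far under Krt222 in every group.

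**Figure D4:**
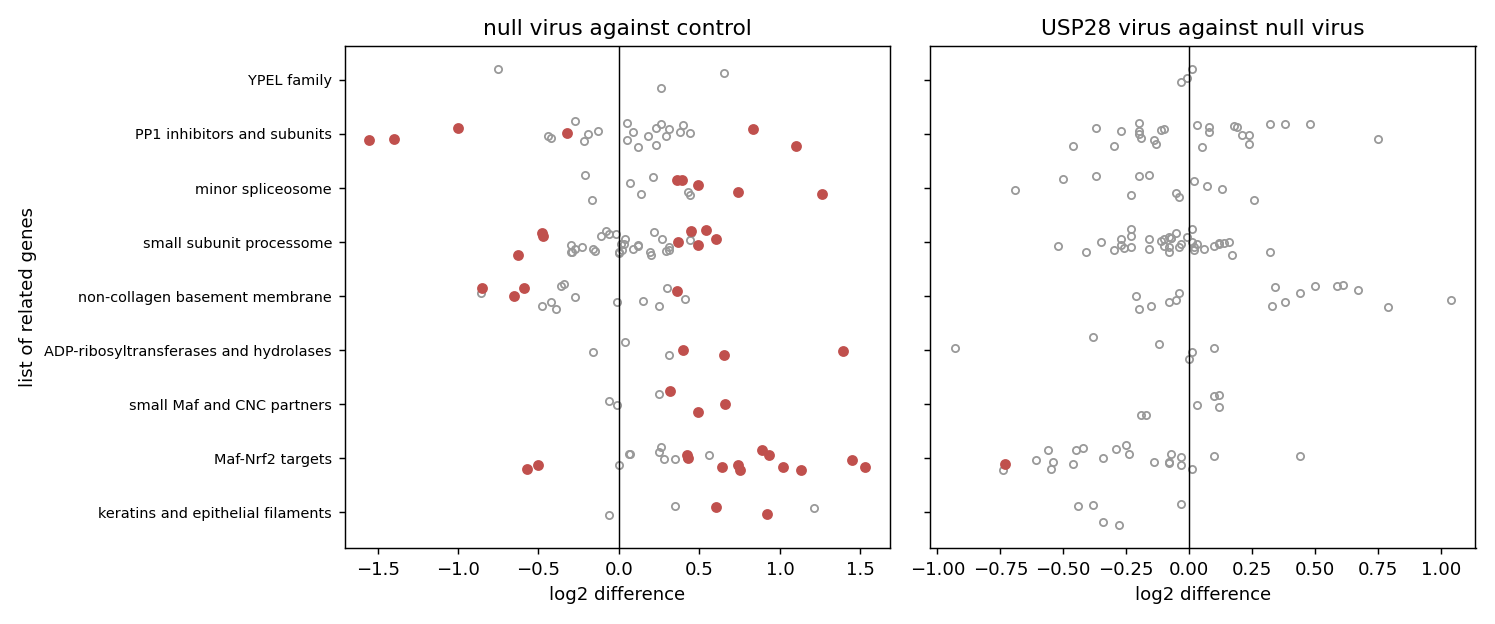
Log2 difference of the 132 tested related genes, by list on the vertical axis, for null virus against control (left) and USP28 virus against null virus (right). Filled red points passed at an adjusted p under 0.05 in limma, and open grey points did not. On the left 44 genes are filled, and on the right the single filled point is Gsta4.

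Markers of other cell types were read beside these values, as counts between control and null virus and as summed levels in control, null virus and USP28 virus. Of 12 endothelial markers 5 were higher and 0 lower, or 41.7% against 22.4% of all genes. They summed to 175 to 196, 333 to 419 and 278 to 316. Fabp4, a fatty acid binding protein, made up much of this, and the 11 others summed to 94.9 to 111, 119 to 151 and 132 to 149. Of 10 fibroblast markers 1 was higher and 6 lower (70%), with sums of 211 to 240, 281 to 322 and 299 to 340. Gsn, the 1 that was higher, made up much of these sums, with means of 118.3, 199.9 and 201.1. Of 10 smooth muscle and pericyte markers 0 were higher and 1 lower (10%), with sums of 221 to 266, 211 to 273 and 264 to 306. The tissue's own cardiomyocyte markers summed to 27100 to 42400 over all libraries, with 0 of 10 higher and 1 lower (10%). These counts moved without null-virus replicate 1, where 31.6% of all genes passed. They became 9 higher and 1 lower for endothelial (83.3%) and 2 and 6 for fibroblast markers (80%). For smooth muscle they became 1 and 2 (30%), and for cardiomyocyte markers 2 and 5 (70%).

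Among blood cell markers, those of neutrophils summed to 10.2 to 18.1, 2.34 to 3.63 and 0.656 to 2.10, and S100a9, the 1 tested, fell between control and null virus (limma, log2 -2.40, adjusted p = 0.0045). Of 8 macrophage markers 0 were higher and 3 lower, or 37.5% against 22.4% of all genes. Their sums were 75.1 to 99.8, 66.6 to 90.5 and 61.7 to 67.4. Erythroid markers summed to 139 to 526, 129 to 196 and 108 to 223, and 0 of 5 passed. Of 5 skeletal muscle markers 0 were higher and 2 lower, or 40% (1 lower, or 20%, without null-virus replicate 1). They summed to 436 to 587, 269 to 315 and 230 to 251. Atrial markers summed to 135 to 207, 91.8 to 352 and 156 to 1470, the last being USP28-virus replicate 1, while USP28-virus replicates 2 and 3 were at 156 and 182. Lymphocyte and adipocyte markers summed to at most 0.653 and 0.437. Between USP28 virus and null virus the fibroblast marker Lum rose, and no other marker passed. Without null-virus replicate 1, 6.42% of all genes passed in that comparison. It then had 2 fibroblast markers higher and 0 lower (20%), 1 endothelial higher and 2 lower (25%), and 1 cardiomyocyte higher and 2 lower (30%). The part of these cell types in the levels of the 8 genes was not tested.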

How the data were processed

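The authors deposited 1 table of RPKM values with gene lengths for 30128 genes in 9 libraries. The unit was read from the values: value times length is a whole number of reads, within 0.01, for 99.9839% of values above 0, which gave the depth of each library. Per the labels' protocols, polyadenylated RNA was made into directional libraries and read from both ends. HISAT2 and DESeq2 are listed in the submitters' processing notes, with the human build GRCh38. The table is of mouse genes, and 25445 spans equal GENCODE M21 on GRCm38, so positions are on GRCm38. The sources used here name neither the counter nor whether it used the strand.

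RPKM was scaled by trimmed means of M values (trims 30% and 5%), genes with an RPKM of at least 0.5 in 3 libraries were kept, and log2(scaled RPKM + 0.1) was fitted with limma 3.58.1 in R 4.3.3 over the 3 groups (prior trended and robust). Differences are on this log2 scale, and those of low genes are understated by it. P-values were adjusted by Benjamini-Hochberg over the 14104 genes, with a threshold of 0.05. A count fit on recovered reads (limma voom), other scalings, pseudocounts and filters, and leaving out each library were tried, and the code was tested on simulated data. The 8 genes and all lists were chosen with earlier results of these data known. From each list of related genes, all members of short lists or up to 3 passing genes per comparison with the smallest adjusted p were named. Likeness was ranked by Pearson r, leaving out predicted gene models, and flanking genes were those overlapping or nearest on either side. Counting errors cover sampling of reads alone. Protein sequences were not used here.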

Additional observations from a re-analysis of the deposited data

How the results depend on the processing

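Between null virus and control, and between the virus groups, the differences of the 8 genes had the same sign under every setting tried. All 8 passed between null virus and control in each. Between USP28 virus and control the difference of Maff was smaller than its SE (log2 0.10, SE 0.17), so its sign there is not settled. The calls between USP28 virus and null virus were fragile. With library totals alone 31 genes passed (27 higher and 4 lower, against 55 and 28 of 83) and 3 of the 8, and between USP28 virus and control 921 (612 higher and 309 lower, against 778 and 871 of 1649). Without a filter, which adds genes to the adjustment, 2084 genes and 26 related genes passed between null virus and control, 10 and 0 between USP28 virus and null virus, with 2 of the 8, and 919 and 7 between USP28 virus and control. With 2 groups alone the numbers were 1624 and 21, 0 and 0 with 0 of the 8 (1812 genes at an unadjusted p under 0.05), and 3827 and 30. With limma voom 187 genes and 3 related genes passed between the virus groups. The related number there was 2 with median of ratios scaling and 2 with a prior without the robust option. With a replicate block, 0 genes, 0 related genes and 0 of the 8 passed between the virus groups, with 2317 genes and 8 of the 8 at an unadjusted p under 0.05. Deviations of samples with the same replicate number had correlations of -0.029 to 0.06, and those with different numbers -0.087 to 0.059. With 3 samples per group this cannot decide whether the numbers mark pairs. Leaving out 1 library gave 1454 to 4457 genes and 20 to 62 related genes between null virus and control. Between USP28 virus and null virus it gave 0 to 905 genes, 0 to 13 related genes and 0 to 8 of the 8. Between USP28 virus and control it gave 361 to 4113 genes, 1 to 36 related genes and 2 to 5 of the 8. The number of the 8 with all USP28-virus libraries outside the control range was then 5 to 7. The cause was not tested where none is named. Depth limits Imp3 most, with 76 to 150 reads a library.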
